A study of Rattus norvegicus with 20 samples.

Results

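The genes described here are the 6 rat genes that make the core of MHC class II antigen presentation, RT1-Da, RT1-Db1, RT1-Ba, RT1-Bb, Cd74 and Ciita, which were taken by symbol from the 39747 genes counted in the dorsal root ganglion (DRG) libraries. All 6 symbols matched exactly 1 row each. RNA was sequenced from 20 DRG of 14 female Sprague-Dawley rats, an outbred stock, which the labels give as wild type (WT) and the methods as 8 to 10 weeks old. The labels name a soy oil diet (SOD) and a fish oil diet (FOD), which started 4 weeks before surgery, and the rats were then given either loose ligatures around the left sciatic nerve (chronic constriction injury, CCI) or a sham exposure of that nerve (CT). Left DRG were sequenced in 4 rats of the SOD-CT group, 3 of SOD-CCI, 3 of FOD-CT and 4 of FOD-CCI. The right, contralateral DRG was sequenced as well in all 3 SOD-CCI rats and in FOD-CCI replicates 1 to 3. All animals were therefore operated, were on 1 of the 2 diets, and were perfused with saline before dissection. The study places collection 1 week after surgery, while its methods also have the diets going on for 4 weeks after surgery. Each library is a whole ganglion, so fewer cells of a type and less RNA per cell cannot be told apart, and the sham rats have no right DRG here.

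MHC class II molecules show peptides from ingested material to CD4+ T cells. The alpha chain RT1-Da pairs with the beta chain RT1-Db1 (the rat RT1-D molecule, related to human HLA-DR), and RT1-Ba pairs with RT1-Bb (RT1-B, related to HLA-DQ). Cd74 encodes the invariant chain, which occupies the groove of new class II molecules and brings them to the endosome, and Ciita encodes the coactivator without which the other genes are hardly transcribed. Macrophages, dendritic cells and B cells are the usual class II cells, and in sensory ganglia resident and infiltrating macrophages around the neurons are known for it. RT1 genes differ strongly between haplotypes, and reads from an allele far from the reference can be lost or given to a related gene, so counts of single RT1 genes in an outbred stock are uncertain.

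Class II genes are switched on through an X box and a Y box upstream of the start, to which the RFX complex and NF-Y bind and on which CIITA assembles. Promoters of 5 of the 6 genes were in the RefSeq table used here (GRCr8, 250 bases before to 50 bases after the start). They were searched for 1 exact string per box, so a box spelled otherwise was not looked for. The stretches are shown because 3 of the 5 hold both strings and the other 2 hold 1 of them. Capitals mark GCAAC, the core of the X box, and TGATTGG, the Y box with its inverted CCAAT, each with up to 20 bases on either side.
RT1-Da, chr20:4515313-4515390, plus strand: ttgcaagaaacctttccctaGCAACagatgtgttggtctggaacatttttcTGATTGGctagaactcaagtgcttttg
RT1-Db1, chr20:4560218-4560294, minus strand: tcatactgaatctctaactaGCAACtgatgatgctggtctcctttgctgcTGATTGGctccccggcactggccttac
RT1-Ba, chr20:4576961-4577038, plus strand: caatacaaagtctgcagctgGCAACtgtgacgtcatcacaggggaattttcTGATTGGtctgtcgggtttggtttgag
RT1-Bb, chr20:4604155-4604201, minus strand: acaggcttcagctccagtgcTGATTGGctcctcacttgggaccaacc
Cd74, chr18:56527116-56527160, plus strand: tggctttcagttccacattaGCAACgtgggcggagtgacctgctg

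In RT1-Da, RT1-Db1 and RT1-Ba the X box core was followed by the Y box after 26, 25 and 26 bases. The X box core began at position −82 relative to the start in RT1-Da, −112 in RT1-Db1 and −76 in RT1-Ba. RT1-Bb held the Y box at −63 without GCAAC in the window, and Cd74 held GCAAC at −70 without TGATTGG. Searched on both strands, GCAAC was found in 35.1% and TGATTGG in 7.06% of the 33469 promoters in the table, so neither alone sets the class II genes apart. Both in this order on the gene's own strand with 15 to 35 bases between them were found in 26 promoters (0.0777%), of 25 genes. Of these genes, 7 were class II genes, namely RT1-Da, RT1-Db1, RT1-Ba, RT1-DOa, RT1-DOb, RT1-Db2 and RT1-Ha. The 2 motifs do not overlap each other, the letters and the spacing were chosen with the class II promoters in view, and a match is a description of these letters only.

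Libraries held 22547190 to 54437581 counts, and levels are given as CPM, the counts of a gene scaled to the total assigned to genes in its library. Some libraries stood apart by transcripts of other tissues. A list of 10 spinal cord markers summed to 4850 CPM in FOD-CT replicate 1, 3236 CPM in FOD-CCI replicate 1 and 5548 CPM in the contralateral DRG of the same rat, against at most 236 CPM in the other 17 libraries. Skeletal muscle markers, 9 genes, summed to 91416 CPM in SOD-CT replicate 1 and 20198 CPM in FOD-CT replicate 2. Lower sums were 7262 CPM in the contralateral DRG of FOD-CCI replicate 3 and 4916 CPM in SOD-CT replicate 4. Red cell markers summed to 225 to 10145.5 CPM in FOD-CCI, highest in replicate 2, and to 40.1 to 256 CPM in SOD-CCI. In SOD-CT replicate 4 they stood at 3724 CPM. The part of muscle or blood in the class II values was not tested. The label of injury was checked on 14 nerve injury genes such as Gal, Jun and Ecel1. Their sum was 2685 to 3200 CPM in SOD-CCI and 289 to 883 CPM in the sham libraries of both diets, and it was 1565 to 4338 CPM in 3 FOD-CCI libraries but 427 CPM in the library labelled FOD-CCI replicate 1, inside the range of the sham libraries.

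Compared per length, as FPKM, which divides the scaled counts by the length of the transcript, Cd74 was the most abundant of the 6 transcripts, and Ciita and the RT1-B chains were the scarcest. The median FPKM over the 20 libraries was 105 for Cd74, 35.6 for RT1-Da and 17.8 for RT1-Db1, and it was 0.375 for Ciita, 0.322 for RT1-Ba and 0.140 for RT1-Bb. Cd74 was above RT1-Da and RT1-Da above RT1-Db1 in 20 of 20 libraries, while the order of the last 3 changed between libraries, with Ciita above both RT1-B chains in 6 of 20. Cd74 made up 41.0% to 70.7% of all class II counts of a library (median 61.5%). Levels varied widely between rats: the highest library was 60.1 times the lowest for Cd74 (18.2 to 1095 CPM) and 54 times for RT1-Da (8.41 to 454 CPM). The lowest libraries for both genes were SOD-CT replicate 1 and FOD-CCI replicate 1, and the highest was FOD-CCI replicate 4.

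**Figure D1:**
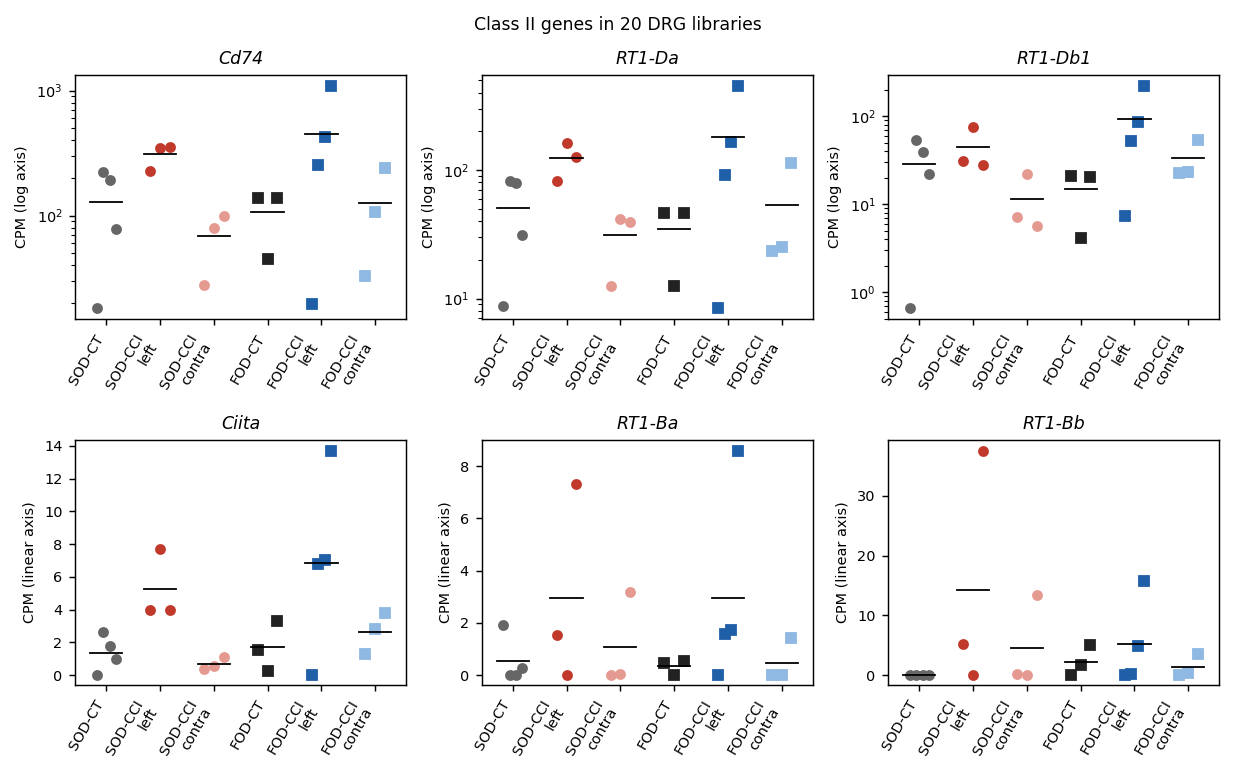
CPM of the 6 class II genes in each library (points) by group, with the group mean as a line, on a log axis for Cd74, RT1-Da and RT1-Db1 and on a linear axis for Ciita, RT1-Ba and RT1-Bb. The FOD-CCI group runs from 19.8 to 1095 CPM for Cd74, and all 4 SOD-CT libraries are at 0 for RT1-Bb.

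The left and contralateral DRG of the same SOD-CCI rat were compared first, since each rat is its own control. All 4 class II genes that could be tested were higher on the injured side in every SOD-CCI rat. Cd74 stood at 28.2, 79.4 and 99.2 CPM in the contralateral DRG of replicates 1, 2 and 3 and at 228, 347 and 351 CPM in their left DRG. The left DRG was 3.54 to 8.11 times the right within rats. RT1-Da stood at 12.6, 41.8 and 39.4 CPM on the right and at 81.6, 164 and 125 CPM on the left, which is 3.19 to 6.48 times within rats. RT1-Db1 stood at 7.25, 21.9 and 5.70 CPM on the right and at 30.7, 75.6 and 27.6 CPM on the left. It was 3.45 to 4.84 times higher on the left, the narrowest range of the 4. Ciita, the coactivator, stood at 0.395, 0.571 and 1.09 CPM on the right, that is 11 to 47 counts, and at 4.01, 7.72 and 4.01 CPM on the left. Its ratios of left to right were 3.68 to 13.5. Among the 14549 genes tested, 25% were higher on the left in all 3 of these rats.

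With the rat as a block, edgeR's quasi-likelihood test gave a log2 fold change (log2FC) of 2.27 for Cd74 (SE 0.39, adjusted p = 0.120), 2.06 for RT1-Da (SE 0.51, adjusted p = 0.255), 2.0 for RT1-Db1 (SE 0.46, adjusted p = 0.228) and 2.92 for Ciita (SE 1.16, adjusted p = 0.520). A gene was called when its adjusted p did not exceed 0.1 and its level differed 1.2-fold or more. By edgeR 0 of the 4 were called, where 0.131% of all genes were. The unadjusted p was under 0.05 for all 4, where 5.34% of all genes were higher at that level, and DESeq2 called all 4 among 472 genes, with an adjusted p of 2.01e-08 for Cd74 and 0.0662 for Ciita. The median log2FC of the 4 was 2.16, beside 0.019 for all genes tested. The call depended on the rat of FOD-CCI replicate 1, whose libraries are in the model but on neither side of this comparison. With that rat left out, the log2FC values were 2.27, 2.05, 1.99 and 2.91, and edgeR called all 4 among 471 of 14992 genes (adjusted p 0.00384 for Cd74, 0.00921 for RT1-Da, 0.00281 for RT1-Db1 and 0.0436 for Ciita).

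**Figure D2:**
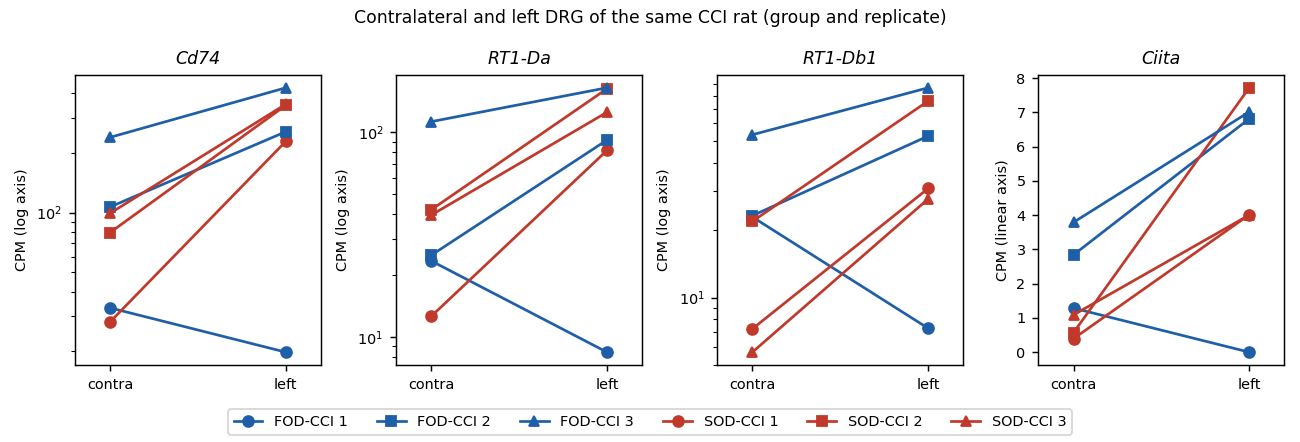
CPM of Cd74, RT1-Da, RT1-Db1 (log axes) and Ciita (linear axis) in the contralateral and left DRG of the 6 CCI rats, 1 line per rat. All 3 SOD-CCI lines slope up from right to left DRG, as do those of FOD-CCI replicates 2 and 3, and the line of FOD-CCI replicate 1 slopes down.

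In FOD-CCI rats the same genes were higher on the injured side in 2 of 3 rats, so 0 of the 4 were higher in all 3, as 11.4% of all genes were. Cd74 stood at 33.1, 107 and 239 CPM in the contralateral DRG of replicates 1, 2 and 3 and at 19.8, 255 and 425 CPM in their left DRG. Left was therefore 0.598, 2.39 and 1.78 times the right, and the sides overlapped. RT1-Da stood at 23.5, 25.1 and 113 CPM on the right and at 8.41, 91.7 and 165 CPM on the left. RT1-Db1 stood at 22.9, 23.2 and 53.4 CPM on the right and at 7.29, 52.7 and 86.7 CPM on the left. The rat that was lower on the left in all 3 genes was replicate 1, whose 2 libraries carried the spinal cord transcripts described above and whose left DRG had nerve injury genes at the level of sham. Ciita had 29 counts on the right and 0 on the left of that rat, where 0 counts allow up to 0.112 CPM, and in the other rats it stood at 2.84 and 3.79 CPM on the right and at 6.82 and 7.02 CPM on the left.

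The log2FC of left against contralateral DRG in FOD-CCI rats was 0.48 for Cd74 (SE 0.38), 0.36 for RT1-Da (SE 0.54), 0.15 for RT1-Db1 (SE 0.47) and −0.23 for Ciita (SE 1.25). None of these 4 was called by edgeR (adjusted p 0.831 to 0.980, 0.0137% of all genes called), 0 had an unadjusted p under 0.05, as 6.96% of all genes had, and DESeq2 called 0. Without the rat of replicate 1 the values were 1.04 for Cd74 (SE 0.29), 1.2 for RT1-Da (SE 0.35), 0.93 for RT1-Db1 (SE 0.25) and 1.07 for Ciita (SE 0.66), with adjusted p from edgeR of 0.186 to 0.561, and 137 of 14992 genes were called.

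The difference between the diets in this left-to-right change was tested directly. It was −1.79 for Cd74 (SE 0.53), −1.69 for RT1-Da (SE 0.73), −1.85 for RT1-Db1 (SE 0.65) and −3.15 for Ciita (SE 1.67) on the log2 scale, that is, a smaller change in FOD-CCI rats. By edgeR 0 of the 4 were called (adjusted p = 0.997 for each), and 0% of all genes were. The unadjusted p was under 0.05 for 3 of the 4, with 2.11% of all genes lower at that level, and DESeq2 called Cd74 alone (adjusted p = 0.0643). How many of all genes DESeq2 called there is not given, so this call has no background beside it. Without the rat of FOD-CCI replicate 1 the differences were −1.23 for Cd74, −0.85 for RT1-Da, −1.06 for RT1-Db1 and −1.85 for Ciita, and 0 were called.

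Injured and sham left DRG come from different rats, and here the spread between rats was wide. Cd74 was 309 ± 69.7 CPM (SD, n = 3) in SOD-CCI and 128 ± 96.1 CPM (SD, n = 4) in SOD-CT, whose libraries stood at 18.2, 223, 192 and 78.8 CPM. The groups did not overlap for Cd74 or for Ciita, at 4.01 to 7.72 CPM in SOD-CCI and 0 to 2.64 CPM in SOD-CT. Among all genes, 11.8% were higher in SOD-CCI without overlap. RT1-Da, at 8.82, 82.8, 79.0 and 31.1 CPM in SOD-CT, overlapped with SOD-CCI at its lowest library (81.6 CPM), and RT1-Db1 overlapped in 2 of the 3. The log2FC was 1.23 for Cd74 (SE 0.86), 1.24 for RT1-Da (SE 0.87) and 0.59 for RT1-Db1 (SE 0.99). With 1 library left out, the values ran from 0.89 to 1.61 for Cd74, 0.92 to 1.56 for RT1-Da and 0.016 to 1.07 for RT1-Db1. By edgeR 0 of these 3 were called (adjusted p 0.523 to 0.815, 0% of all genes called), 0 had an unadjusted p under 0.05, as 13.8% of all genes had, and DESeq2 called 0. Ciita, which missed the filter on low counts here, had a log2FC of 1.91 (SE 1.25, edgeR adjusted p = 0.560) in the fit without that filter.

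Under fish oil, 3 of 4 FOD-CCI libraries were above every FOD-CT library for Cd74, RT1-Da, RT1-Db1 and Ciita. How many of all genes showed this pattern was not counted, so it has no background beside it. Cd74 stood at 137, 44.7 and 138 CPM in FOD-CT and at 19.8, 255, 425 and 1095 CPM in FOD-CCI. RT1-Da stood at 46.2, 12.5 and 46.4 CPM in FOD-CT and at 8.41, 91.7, 165 and 454 CPM in FOD-CCI. RT1-Db1 stood at 20.7, 4.14 and 20.4 CPM in FOD-CT and at 7.29, 52.7, 86.7 and 223 CPM in FOD-CCI. The groups overlapped through the library labelled FOD-CCI replicate 1 alone. The log2FC was 2.14 for Cd74 (SE 0.93), 2.43 for RT1-Da (SE 0.95) and 2.69 for RT1-Db1 (SE 1.10), with an adjusted p from edgeR of 1.00 for each. None of the 3 was called (0% of all genes), all 3 had an unadjusted p under 0.05 (3.2% of all genes were higher at that level), and DESeq2 called 0. The values rested on single rats: without FOD-CCI replicate 4 they were 1.21, 1.42 and 1.79 in the same order, and without replicate 1 they were 2.54, 2.83 and 3.07. With the replicate number as a block they were 0.97 (SE 1.03), 1.21 (SE 1.02) and 1.35 (SE 1.2). Ciita had a log2FC of 2.07 (SE 1.33, edgeR adjusted p = 0.733) in the fit with no filter on low counts.

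**Figure D3:**
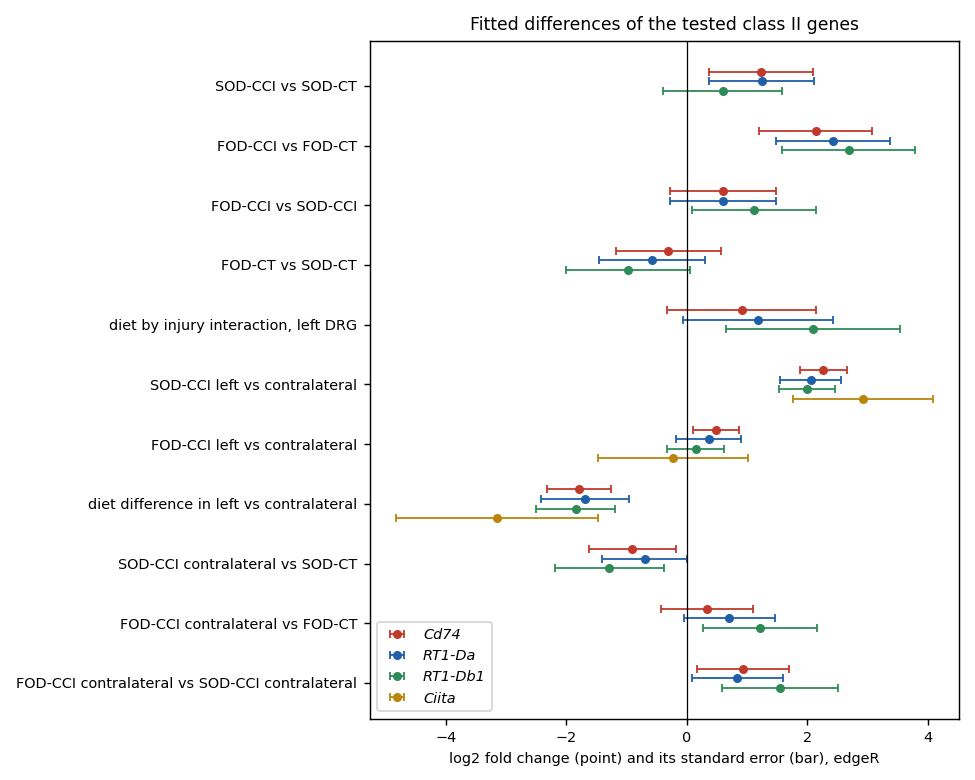
Fitted log2 fold change (point) and its standard error (bar) of the class II genes that passed the filter, in each of the 11 comparisons. The values of Cd74, RT1-Da and RT1-Db1 stand on 1 side of 0 within each comparison, and the SOD-CCI left against contralateral values, from 2.0 to 2.92, are for each gene the farthest from 0 in units of their error.

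Between the diets, 0 of 3 tested class II genes were called by edgeR or DESeq2 and 0 had an unadjusted p under 0.05, in injured, sham or contralateral DRG, with 0% of all genes called by edgeR in each comparison and 5.4%, 3.39% and 7.1% at an unadjusted p under 0.05. The log2FC of FOD-CCI against SOD-CCI was 0.60 for Cd74 (SE 0.88), 0.61 for RT1-Da (SE 0.88) and 1.12 for RT1-Db1 (SE 1.03), and without FOD-CCI replicate 4 that of Cd74 was −0.33 and that of RT1-Da −0.40. FOD-CT against SOD-CT gave −0.31, −0.58 and −0.97 in the same order (SE 0.88 to 1.03). In the contralateral DRG, FOD-CCI against SOD-CCI gave 0.93, 0.84 and 1.55 (SE 0.75 to 0.96). RT1-Db1, at 22.9 to 53.4 CPM in FOD-CCI and 5.70 to 21.9 CPM in SOD-CCI, and Ciita, at 1.29 to 3.79 and 0.395 to 1.09 CPM, did not overlap there, where 8.22% of all genes were higher without overlap. The interaction of diet and injury in left DRG was 0.91 for Cd74 (SE 1.24), 1.19 for RT1-Da (SE 1.25) and 2.10 for RT1-Db1 (SE 1.45), with 0 called by either tool, 0 at an unadjusted p under 0.05 (5.01% of all genes) and 0% of all genes called. Its sign is the opposite of that of the left-to-right difference between diets. The 2 comparisons share 6 left CCI libraries and differ in their controls, sham DRG of other rats in one and the contralateral DRG of the same rats in the other, and FOD-CCI replicate 4, which has no contralateral library, enters the interaction only. Without that library the interaction was −0.02 for Cd74, 0.18 for RT1-Da and 1.19 for RT1-Db1, and with the replicate number as a block it was −0.71 for Cd74 and −0.43 for RT1-Da.

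The contralateral DRG were also set against sham DRG. Cd74 was 68.9 ± 36.7 CPM (SD, n = 3) in the contralateral DRG of SOD-CCI rats where SOD-CT had 128 ± 96.1 CPM. The log2FC was −0.90 for Cd74 (SE 0.73), −0.70 for RT1-Da (SE 0.71) and −1.29 for RT1-Db1 (SE 0.91). In FOD-CCI rats Cd74 was 126 ± 104 CPM (SD, n = 3) against 107 ± 53.6 CPM (SD, n = 3) in FOD-CT, a log2FC of 0.33 (SE 0.76), with 0.71 for RT1-Da (SE 0.75) and 1.22 for RT1-Db1 (SE 0.95). RT1-Db1 did not overlap between these groups, with 20.7 CPM in the highest FOD-CT library, where 4.08% of all genes were higher without overlap. By edgeR and by DESeq2 0 of 3 were called in either comparison, 0 had an unadjusted p under 0.05 (7.06% of all genes under soy oil and 1.71% under fish oil), and 0% of all genes were called by edgeR in each.

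The RT1-B chains were present in some rats and at or near 0 in others, within SOD-CCI, FOD-CT and FOD-CCI alike. Neither RT1-Ba nor RT1-Bb reached 10 counts in 90% of the libraries of any model, so neither was tested in the filtered fits. Both had at least 10 counts in 7 libraries, RT1-Ba alone in 3, RT1-Bb alone in 2 and neither in 8. RT1-Bb was at 0 in all 4 SOD-CT libraries, which allows up to 0.102 to 0.132 CPM per library. In SOD-CCI it stood at 5.28, 0 and 37.5 CPM, and in FOD-CT at 0, 1.66 and 4.98 CPM. The 2 DRG were alike in 4 of the 6 rats with both, in that each gene reached 10 counts on both sides or on neither. The rat of SOD-CCI replicate 3 had 576 counts of RT1-Bb and 138 of RT1-Ba on the right and 1085 and 212 on the left. The rat of SOD-CCI replicate 2 had 0 or 1 count of either gene on both sides, although its left DRG had 164 CPM of RT1-Da. The rat of FOD-CCI replicate 1 had 0 counts of both genes in both DRG. In the rat of SOD-CCI replicate 1, RT1-Bb had 8 counts on the right and 146 on the left, a ratio of 18.4 in CPM, and RT1-Ba had 0 and 43. In that of FOD-CCI replicate 2, RT1-Ba had 0 on the right and 47 on the left, and RT1-Bb had 12 and 4. In the fit without the filter the log2FC of RT1-Bb on the left against the right was 2.61 in SOD-CCI (SE 0.91, edgeR adjusted p = 0.425) and −0.38 in FOD-CCI (SE 0.88), and that of RT1-Ba was 1.93 (SE 2.26) and 2.80 (SE 2.55).

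**Figure D4:**
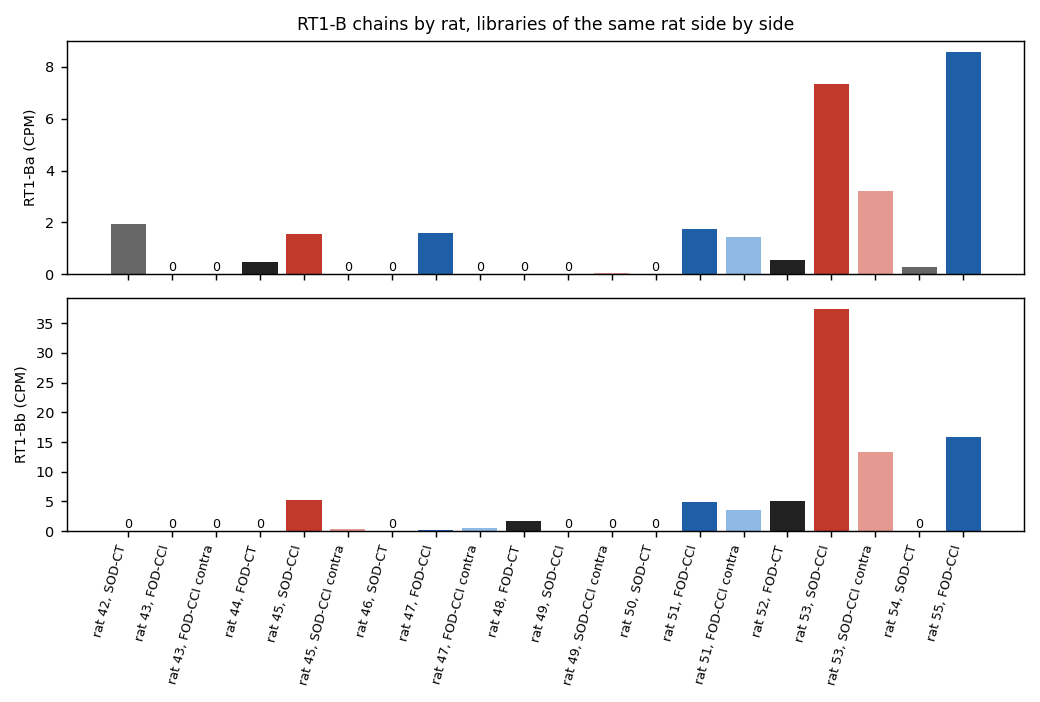
CPM of RT1-Ba (top) and RT1-Bb (bottom) in the 20 libraries, with the left and contralateral DRG of a rat side by side and colours for the groups, and a 0 above libraries with no count. Both chains are high in both DRG of rat 53 (SOD-CCI replicate 3) and at 0 in both DRG of rat 43 (FOD-CCI replicate 1).

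Zeros by rat were also found in RT1-CE16, a class I gene chosen here after its values were seen. It had 0 counts in both DRG of the rats of SOD-CCI replicate 2 and FOD-CCI replicate 3, and 940 to 2833 counts in both DRG of the other 4 rats with 2 libraries. Of the other class II genes looked up, RT1-Db2 had at most 5 counts in a library, RT1-Ha at most 20, RT1-DOa at most 247 and RT1-DOb at most 284. Whether alleles that align poorly play a part in the RT1-B and RT1-CE16 zeros was not tested.

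Cd74, RT1-Da, RT1-Db1 and Ciita varied together across libraries. Over the 20 libraries, which include 6 pairs from the same rat, Pearson's r of log2 CPM was 0.977 between RT1-Da and Cd74 (Spearman 0.979), 0.878 between RT1-Da and RT1-Db1 and 0.904 between Cd74 and Ciita. Taken as deviations from the group means, the r of RT1-Da and Cd74 was 0.976, so they varied together within groups too. RT1-Ba and RT1-Bb had an r of 0.667 with each other and of 0.137 and 0.201 with RT1-Db1. The FPKM ratio of Cd74 to RT1-Da was between 1.40 and 4.23 (median 2.51). The ratio of the alpha chain RT1-Da to its beta chain RT1-Db1 was between 1.09 and 14.3 (median 2.16), and it was high in both DRG of 1 rat, SOD-CCI replicate 3 (7.37 right and 4.85 left).

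The tested genes of the peptide loading and processing list were near 0 in the median. RT1-DMa, RT1-DMb, RT1-DOa and RT1-DOb, which act on loading, were not among them. The list of 12 peptide loading and processing genes had 10 in the files, since RT1-DMa and RT1-DMb were not matched, and 7 of them were tested. In SOD-CCI left against contralateral DRG, 3 were higher and 4 lower, and the median log2FC was 0.00. Of the 7, 0 were called and 2 had an unadjusted p under 0.05, where 5.34% of all genes were higher at that level. Those 2 were Ctss, the protease that trims the invariant chain, at 1.93 (SE 0.36, edgeR adjusted p = 0.151), and Ifi30, a thiol reductase of the endosome, at 1.18 (SE 0.42, edgeR adjusted p = 0.463). Ctss stood at 52.3 ± 12.3 CPM (SD, n = 3) on the left and at 13.8 ± 5.26 CPM (SD, n = 3) on the right. Lgmn, another endosomal protease, had a log2FC of 0.00 (SE 0.22). RT1-DOa and RT1-DOb, the chains of a modulator of peptide loading that is typical of B cells, were at 0 in 11 and 7 libraries and were not tested.

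Among 12 other genes of class II transcription, Ciita not counted, 11 were tested in the comparison of left and contralateral DRG of SOD-CCI rats, 9 were higher, 0 were called and the median was 0.57. Rfx5, a subunit of the RFX complex, had a log2FC of 0.80 (SE 0.28, edgeR adjusted p = 0.458). Irf1, a transcription factor through which interferon gamma acts on Ciita, was at 1.13 (SE 0.34, edgeR adjusted p = 0.362). Irf1 stood at 9.48 ± 0.300 CPM (SD, n = 3) on the right and at 21.6 ± 2.30 CPM (SD, n = 3) on the left. Of 6 genes of interferon gamma signaling itself, 4 were tested and all 4 were higher, 0 called, with a median of 0.45. Of 7 genes of contact with T cells, 3 were tested and all 3 were higher, 0 called, with a median of 1.12. These were Cd4, the class II coreceptor that rat macrophages also carry, at 2.39 (SE 0.59, edgeR adjusted p = 0.255), the adhesion molecule Icam1 at 1.12 (SE 0.55) and Cd274, which encodes PD-L1, at 0.96 (SE 0.53). For class I, 13 of 15 genes were tested, 12 were higher and 0 called, with a median of 0.41. B2m, the light chain of class I molecules, was at 0.19 (SE 0.24), and Nlrc5, the class I counterpart of Ciita, was at 0.93 (SE 1.07). All these medians lie below the 2.16 of the class II genes, and no difference between lists was tested. For scale, 6 of 12 tested nerve injury genes were called in the same fit, where 0.131% of all genes were. These were Gal, Jun, Ecel1, Csf1, Cacna2d1 and Adcyap1, at a log2FC of 1.88 for Jun to 3.93 for Gal. In FOD-CCI left against contralateral DRG the medians were 0.21 for loading and processing, 0.40 for class II transcription, 0.19 for interferon gamma signaling, 0.38 for T cell contact and −0.07 for class I, with 0 called in each. There Ctss was at 0.33 (SE 0.36), Ifi30 at 0.69 (SE 0.44), Rfx5 at 0.14 (SE 0.27) and Irf1 at 0.22 (SE 0.35).

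Markers of macrophages varied with the class II genes, with an r of 0.809 between the log2 CPM of Cd74 and of their sum over the 20 libraries. Other lists did so too, at 0.922 for T cell contact, 0.774 for nerve injury and 0.734 for interferon gamma signaling. Microglia markers were at 0.196, and at 0.875 in the 17 libraries without spinal cord transcripts. Schwann cell markers were at −0.116 and satellite glia markers at −0.277 over the 20 libraries. The sum of the dendritic cell markers had an r of 0.811 with Cd74. As deviations from the group means this r was 0.853, beside 0.858 for the macrophage markers. Of 13 macrophage markers, 12 were tested in SOD-CCI left against contralateral DRG, all 12 were higher, 11 at an unadjusted p under 0.05 and 0 called, with a median log2FC of 2.05. Of all genes, 5.34% were higher at that level. In FOD-CCI rats 9 of 12 were higher on the left, with a median of 0.47 and 0 called, and against sham DRG the medians were 0.70 under soy oil (12 of 13 higher) and 1.48 under fish oil (13 of 13 higher), with 0 called in each. In the contralateral DRG of SOD-CCI rats against SOD-CT, all 10 that were tested were lower, 4 at an unadjusted p under 0.05 and 0 called, with a median of −1.30. Of all genes, 7.06% had such a p there, in either direction. In the contralateral DRG of FOD-CCI rats against FOD-CT 8 of 10 were higher, with a median of 0.40. The summed level of the 13 markers was 92.0 to 201 CPM in the contralateral and 467 to 762 CPM in the left DRG of SOD-CCI rats, 3.19 to 5.22 times higher on the left within rats. In the other groups it was 96.0 to 592 CPM in SOD-CT, 176 to 509 CPM in FOD-CT, 238 to 2076 CPM in FOD-CCI and 438 to 689 CPM in the contralateral DRG of FOD-CCI rats. In FOD-CCI replicate 1 it was also lower on the left, 0.435 times the right, as the class II sum was at 0.439 times. Lyz2 weighed most in the macrophage sum, at a median of 245 CPM beside 53.55 CPM for the next marker, Csf1r. The quotient that follows shares this weight. Summed class II CPM per summed macrophage CPM was 0.529 to 0.984 in the contralateral and 0.752 to 0.864 in the left DRG of SOD-CCI rats, and the left-to-right ratio of this quotient was 1.42, 0.791 and 1.07 in replicates 1, 2 and 3 and 1.01, 0.592 and 1.07 in those of FOD-CCI. The quotient was thus higher on the left in 4 of the 6 rats, and it ranged over all groups from 0.148 to 0.984. Fibroblast markers varied with the class II genes as well, with an r of 0.702 with Cd74 (0.821 as deviations from the group means, beside 0.858 for the macrophage markers). In SOD-CCI left against contralateral DRG all 5 were higher, with a median of 0.90, in FOD-CCI rats 4 of 5 were lower, with a median of −1.01, and in SOD-CCI contralateral DRG against SOD-CT all 5 were lower, with a median of −1.39, with 0 called in each. The part of macrophage, dendritic cell or fibroblast content in the class II result was not tested.

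**Figure D5:**
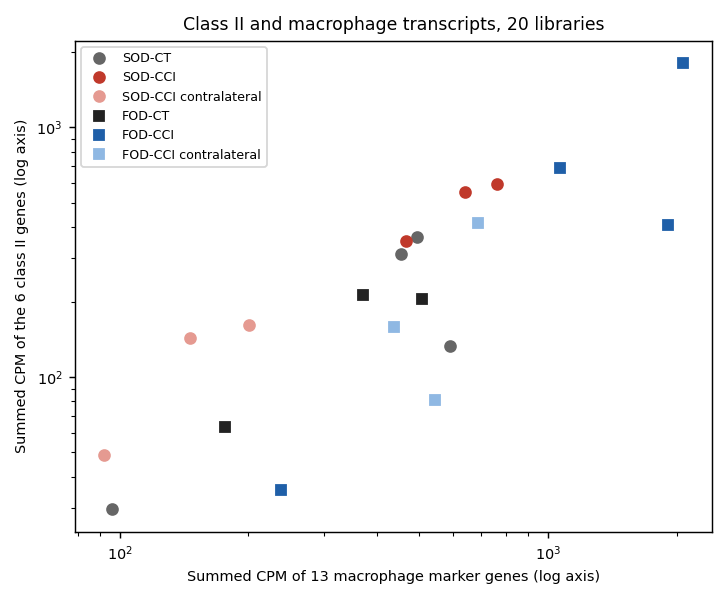
Summed CPM of the 6 class II genes against summed CPM of 13 macrophage markers in the 20 libraries, on log axes, with colour and shape for the group. The contralateral SOD-CCI libraries lie at 92.0 to 201 CPM on the horizontal axis and the left ones at 467 to 762 CPM.

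Markers of B and T cells were low in most libraries, and those of dendritic cells were more often present. Of 6 B cell markers, 1 was above 1 CPM in the median library, Cd79a at 1.13 CPM, and their sum was highest in FOD-CCI replicate 2 at 64.2 CPM. Of 7 T cell markers 1 was above 1 CPM in the median library, Lck at 1.62 CPM, and Cd3e was at 0 in 14. Of 8 dendritic cell markers, 5 were above 1 CPM in the median library, among them Flt3, at 11.3 to 32.0 CPM over the libraries, and Clec10a, which macrophages also use, at a median of 11.5 CPM, and Xcr1 was at 0 in 13 libraries. Flt3 did not follow the others in SOD-CCI contralateral DRG against SOD-CT, at a log2FC of 0.41 (SE 0.30). There Zbtb46 was at −0.35 (SE 0.46), Itgax at −2.03 (SE 1.18) and Clec10a at −1.10 (SE 0.70). No B or T cell marker passed the filter in SOD-CCI left against contralateral DRG, and of 4 tested dendritic cell markers 3 were higher and 0 called.

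The tested genes most like the class II genes over the 20 libraries, by Pearson's r with the mean log2 CPM of RT1-Da, RT1-Db1 and Cd74, were Thbd (r = 0.944), Fxyd5 (0.937), C1qc (0.934), Grn (0.930), Mpeg1 (0.913), Pros1 (0.913), Serping1 (0.910), Ifitm3 (0.909), Ms4a6a (0.90) and Unc93b1 (0.897), out of 14432 genes. C1qc encodes a chain of complement C1q, Mpeg1 a pore-forming protein of macrophages, Grn progranulin and Thbd thrombomodulin. By deviations from the group means the first 10 were Col8a1 (r = 0.959), Serping1, Thbd, Fxyd5, Grn, Ifngr1, C1r, Fbn1, C1qc and Tspan18 (0.923). Ifngr1 encodes a subunit of the interferon gamma receptor, and C1r and Serping1 a protease of the complement cascade and its inhibitor. These r values are descriptions over libraries that share rats, groups and tissue composition.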

How the data were processed

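RNA of 20 rat DRG was sequenced after poly-A selection. The submitters' processing notes name fastp for trimming, HISAT2 for alignment and featureCounts 1.5.0-p3 for counting. The deposited counts are whole numbers per gene with no scaling. FPKM, also deposited, is each count over gene length and a scale for its library. The genome build of the files, the strand setting and the handling of reads with several alignments are not given in the sources used here, so no coordinates of the files are given, and reads of overlapping or antisense genes cannot be told apart. Groups came from the sample titles, and 0 columns were left unassigned.

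The 6 members and the gene lists were chosen with earlier results of these data known. Named besides the members are genes fixed by role in the class II pathway, list genes that were called, and the 10 genes most alike by Pearson's r. RT1-CE16 and single markers or list genes named beyond these were chosen after their values were seen. Counts were fitted with edgeR 4.0.16 in R 4.3.3 (TMM, quasi-likelihood test, two-sided, Benjamini-Hochberg over all genes tested). A fit kept genes that reached 10 counts in 90% or more of its libraries, and calls needed an adjusted p no higher than 0.1 with a 1.2-fold change or more. Separate models were fitted: the 14 left DRG, the 12 DRG of the 6 rats with both sides with the rat as a block, and the 13 sham and contralateral DRG. The numbers pair the samples because both DRG come from 1 rat, and their deviations from the group means correlated at 0.114 to 0.430 in the 6 rats. Equal replicate numbers in FOD-CT and FOD-CCI stand for different rats, whose libraries correlated at 0.429, 0.238 and 0.192. The tests were checked on simulated counts, in which many true changes were not called, so a gene that was not called may still differ. DESeq2 1.42.0, other scalings, other filters and fits without single libraries were the alternatives. A count of all genes called by DESeq2 is given for SOD-CCI left against contralateral DRG only. Floors cover counting error only, which was small beside the spread between rats (biological coefficient of variation 0.756 for Cd74 in the left DRG).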

Additional observations from a re-analysis of the deposited data

Results flagged for a closer look

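In groups of 4 libraries, a library was listed when its gap to the nearest other exceeded Dixon's 95% critical value of 0.829, which chance alone exceeds in about 1 of 20 groups. Of 30 such tests, on the highest and the lowest library of a group, 2 exceeded it, both in SOD-CT replicate 1. Chance could give such a count. RT1-Ba in SOD-CT replicate 1 stood at 1.93 CPM (44 counts), while the other 3 SOD-CT libraries were at 0, 0 and 0.291 CPM. In the same library the FPKM ratio of RT1-Da to RT1-Db1 was 14.3, with 201 counts of RT1-Da and 15 of RT1-Db1, while the other 3 were at 1.51 to 2.15. This is the library with 91416 CPM of skeletal muscle markers, and their part in these values was not tested.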

How the results depend on the processing

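The count of called class II genes was 0 in every comparison and changed in 2. In SOD-CCI left against contralateral DRG it was 4 with DESeq2, 3 with no filter on low counts, 1 with filterByExpr, 4 without the libraries with spinal cord transcripts and 0 to 4 when 1 rat was left out, with 4 only without FOD-CCI replicate 1. Leaving out the libraries with spinal cord transcripts is here the same fit as leaving out FOD-CCI replicate 1, since both drop that rat. In the diet difference of the left-to-right change the count was 1 with DESeq2, with no count of all genes beside it. Of all genes, the first comparison had 19 called in the main analysis, 472 with DESeq2, 220 with no filter, 89 with filterByExpr, 471 without the spinal cord libraries and 0 with no replicate block. With no replicate block for the rat it was 0, and log2FC for Ciita in FOD-CCI left against contralateral DRG was 0.82. Without the spinal cord libraries that value was 1.07, and with 1 rat left out it ran from −1.53 to 1.07, RT1-Da from −0.43 to 1.2 and RT1-Db1 from −0.44 to 0.93.

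With the replicate number as a block no call changed, but directions did. In these models equal replicate numbers stand for different rats, and replicate 4 exists only in SOD-CT and FOD-CCI. FOD-CCI against SOD-CCI came to −0.39 for RT1-Da and −0.38 for Cd74, FOD-CT against SOD-CT to 0.034 for RT1-Da, 0.034 for RT1-Db1 and 0.33 for Cd74, the interaction to −0.43 for RT1-Da (also the median) and −0.71 for Cd74, and FOD-CCI contralateral against FOD-CT to −0.26 for Cd74. With 1 library left out, the ranges that crossed 0 were −0.40 to 1.01 for RT1-Da and −0.33 to 1.00 for Cd74 in FOD-CCI against SOD-CCI, −0.64 to 0.075 for Cd74 in FOD-CT against SOD-CT, −0.017 to 1.31 for Cd74 in the interaction, −0.48 to 1.07 for RT1-Da and −0.54 to 0.79 for Cd74 in FOD-CCI contralateral against FOD-CT, and −0.39 to 1.21 for RT1-Da between the contralateral groups. The causes were not tested.

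Over all alternatives, 632 single-gene values kept their direction and side of the threshold, 17 newly passed it and 23 changed sign. For left against contralateral DRG, the fit without FOD-CCI replicate 1 is counted there again as the fit without the spinal cord libraries.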
